A study of Mus musculus with 19 samples.

Results

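The miRNA content of the nucleus accumbens was set against that of the soleus in the same 4 high-active mice. The nucleus accumbens is a forebrain region of the reward circuit and the soleus is a slow postural muscle of the hind limb. The comparison rests on 8 single-dye Agilent mouse miRNA arrays out of 19 in the series, 4 of each tissue, from mice 223, 224, 225 and 227, whose numbers appear under both tissues. Each number was taken as a separate animal from the sample titles, although the design text of the series says that no biological replicates were used, so a value of n = 4 rests on the titles. All 8 arrays were of C57L/J, an inbred strain that runs long distances when given a wheel. The mice were males, entered the study at 8 weeks of age and were housed alone for 1 week with a wheel that was locked, so that neither tissue had been exposed to wheel running. No group received a treatment. Each tissue was ground whole, so that a lower signal from fewer cells of a type and from less RNA per cell cannot be told apart.

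A miRNA is a short RNA cut from a hairpin in a longer transcript, and either arm of the hairpin can give a mature product, named 5p or 3p. The mature strand guides a silencing complex to messenger RNAs, mainly by pairing through its seed, bases 2 to 8 from the 5′ end, so miRNAs with 1 seed share many predicted targets. Some miRNAs are made in almost every cell, and others follow a cell type closely. miR-1, miR-133 and miR-206 belong to striated muscle, miR-124 and miR-9 to neurons, miR-219 and miR-338 to oligodendrocytes, and the miRNAs of the Hox gene clusters to the trunk and limbs, since Hox genes are silent in the forebrain.

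Mature sequences are given first for a choice of miRNAs that differed strongly between the tissues or that share a seed, because the seeds show which of them form families. They are RefSeq sequences of the mouse assembly GRCm38.p6, written 5′ to 3′, with the seed in capitals. Of the 374 miRNAs that could be tested, 305 had an entry. The first set was lower in the nucleus accumbens.
miR-206-3p: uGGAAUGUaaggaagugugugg
miR-133b-3p: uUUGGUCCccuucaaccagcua
miR-499-5p: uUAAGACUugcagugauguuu
miR-208b-3p: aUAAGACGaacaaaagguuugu
miR-10b-5p: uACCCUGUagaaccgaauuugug
miR-10a-5p: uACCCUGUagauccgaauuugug
miR-196a-5p: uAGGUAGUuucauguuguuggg
miR-199a-3p: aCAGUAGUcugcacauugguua
The second set was higher in the nucleus accumbens.
miR-9-5p: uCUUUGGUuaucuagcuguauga
miR-9-3p: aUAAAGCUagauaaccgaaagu
miR-129-2-3p: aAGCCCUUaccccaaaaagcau
miR-132-3p: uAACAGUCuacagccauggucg
miR-128-3p: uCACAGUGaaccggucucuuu
miR-222-3p: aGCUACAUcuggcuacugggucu
miR-221-3p: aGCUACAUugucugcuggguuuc
miR-200b-3p: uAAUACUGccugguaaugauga
miR-429-3p: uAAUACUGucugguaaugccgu
miR-200a-3p: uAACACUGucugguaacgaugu

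miR-10a-5p and miR-10b-5p carried 1 seed, as did miR-221-3p and miR-222-3p, and miR-200b-3p and miR-429-3p. The muscle pair miR-206-3p (chr1:20679055-20679076, plus strand) and miR-133b-3p (chr1:20682834-20682855, plus strand) lay beside each other in the span of Lincmd1, a long non-coding RNA gene. The hairpin of miR-208b-3p (chr14:54975710-54975731, minus strand) lay in the span of Myh7, the slow myosin heavy chain gene, and that of miR-499-5p (chr2:155622893-155622913, plus strand) in the span of Myh7b, a related myosin gene. miR-10a-5p (chr11:96317186-96317208, plus strand) lay in the span of Hoxb3, and miR-10b-5p (chr2:74726074-74726096, plus strand) in the spans of Hoxd3 and Hoxd4. Among the miRNAs of the second set, miR-128-3p had a copy in R3hdm1 (chr1:128202404-128202424, plus strand) and a copy in Arpp21 (chr9:112118644-112118664, minus strand). miR-132-3p (chr11:75173723-75173744, plus strand) lay in no other gene of the table.

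Each array carried 45440 spots for 2889 probes of 1079 mouse and 57 viral miRNAs. Between 347 and 381 miRNAs were detected on a nucleus accumbens array and between 263 and 310 on a soleus array, and 208 were detected on all 8. Arrays were divided by the 75th percentile of the probes that all 8 detected, which was 1341 to 1986 in the nucleus accumbens and 724 to 1216 in the soleus. The control RNAs added for labelling and hybridization differed by set. The hur sets were also brighter on the nucleus accumbens arrays, and the dmr sets overlapped between the tissues. The spot set hur_2 read 176859 to 227845 there and 108250 to 128268 on the soleus arrays, whereas dmr_285 overlapped between tissues, at 1092 to 1315 and 1023 to 1583. Calls under scalings to these control RNAs are given below, and their part in the results was otherwise not tested. The labelled tissues matched their markers: probes of miR-1, miR-133 and miR-206 gave 41.5% to 53.4% of the summed signal of a soleus array and 0.0594% to 0.0715% of that of a nucleus accumbens array. Nucleus accumbens mouse 224 correlated least with the other arrays of its tissue (r = 0.954, across miRNAs), against up to 0.993 for the rest.

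Most of the measurable miRNAs differed between the brain region and the muscle. Of 374 miRNAs detected on at least 4 of the 8 arrays, 301 (80.5%) passed the test, which was limma with mouse as a block and a Benjamini-Hochberg adjusted p under 0.05. Of these, 172 (46%) were higher in the nucleus accumbens and 129 (34.5%) were lower. Counted from the signal floor explained below, the difference reached 2-fold for 140 of the former and 93 of the latter. It reached 10-fold for 48 and 19, and 100-fold for 7 and 5. For miRNAs detected in 1 tissue only, the lower bound given below can be smaller. miR-129-1-3p, for example, was counted at 122-fold with a bound of 90.2-fold. In 299 of the 301 all 4 mice differed in the same direction. The arrays of the 2 tissues did not overlap for 288 of the 374 (77.0%). The median difference of all tested miRNAs was 0.16 on the log2 scale, where a value of 1 stands for 2-fold.

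The share of higher and lower calls moved with the scaling. Without any scaling, 186 were higher and 65 lower, and the differences shifted upward by a median of 0.69 (log2). With the dmr control RNAs alone as the reference, 151 were higher and 54 lower, with a shift of 0.54. All control RNAs together left 143 and 78 (shift 0.13). Other references moved the differences downward. Calls stood at 140 higher and 155 lower when all probes set the scale (shift -0.50). Quantile normalization left 149 and 152 (-0.45), and the hur control RNAs alone 127 and 116 (-0.34). Under the all-probe and quantile settings, higher calls no longer outnumbered lower ones. With a normexp background correction, 131 were higher and 159 lower, with a shift of -0.17. Changes of under about 2-fold are therefore read relative to the other miRNAs of the array. The plot of differences against mean signal shows how the large differences stand apart from these shifts.

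**Figure D1:**
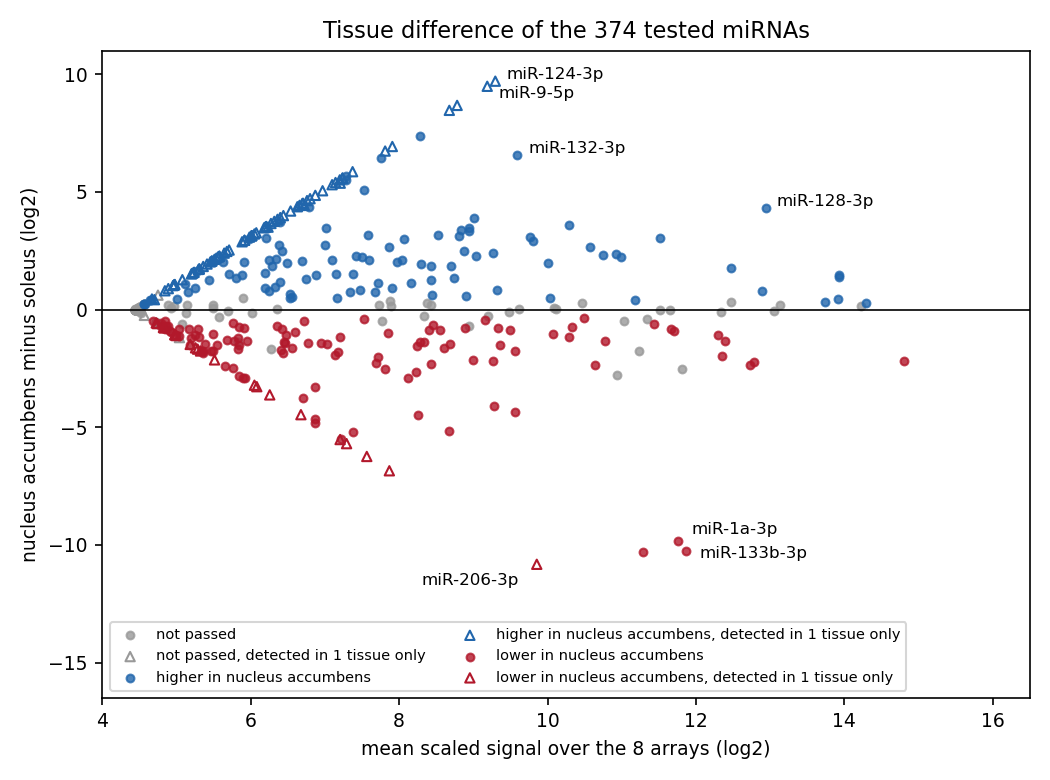
Difference between nucleus accumbens and soleus (log2, y axis) against the mean scaled signal over the 8 arrays (log2, x axis) for the 374 tested miRNAs. Blue points were higher and red points lower in the nucleus accumbens, grey points did not pass, and triangles were detected in 1 tissue only and are drawn at their difference from the floor, which can exceed the bound given in the text; miR-206-3p, miR-1a-3p, miR-133a-3p and miR-133b-3p lie apart at the bottom.

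Values below are log2 scaled signals. Signals under a floor of 21.7 (4.44 on the log2 scale) were raised to it; this is the smallest signal that a detected probe gave on an array, taken as the median over the 8. Where no array of a tissue detected a miRNA its fold is a lower bound. Of the 301 called miRNAs, 77 of the higher and 21 of the lower ones had such a bound, and 170 were detected on all 8 arrays. List medians below count such members by their difference from the floor. With these members at their bounds instead, the median was 4.28 for the neuronal, 3.99 for the activity regulated, 2.64 for the Dlk1-Dio3, 5.15 for the epithelial and -5.27 for the Hox list, and -10.05 as before for core muscle.

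The core muscle miRNAs showed the largest differences among those lower in the nucleus accumbens. All 6 tested members of miR-1, miR-133 and miR-206 were lower there, against 34.5% of all tested miRNAs. Their median was -10.05, against 0.16 over all tested miRNAs. miR-206-3p, the member specific to skeletal muscle, was not detected on any nucleus accumbens array and read 14.80, 15.25, 15.61 and 15.41 in the soleus of mice 223, 224, 225 and 227. It was at least 2064-fold lower in the nucleus accumbens (adjusted p = 8.64e-06). No soleus array came near the floor.

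miR-1a-3p, which promotes muscle differentiation, was detected in both tissues. It read 6.98, 6.85, 6.79 and 6.79 in the nucleus accumbens and 16.80, 16.40, 16.73 and 16.76 in the soleus of the same mice. Its difference was -9.82 ± 0.09 (SE, n = 4 mice; adjusted p = 3.89e-06). The nucleus accumbens arrays lay close to one another and above the floor, so that this muscle miRNA gave a low signal in every brain sample.

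miR-133a-3p and miR-133b-3p, which act on muscle proliferation and differentiation, behaved alike. miR-133a-3p read 5.95, 6.11, 6.37 and 6.08 in the nucleus accumbens and 16.08, 16.34, 16.66 and 16.67 in the soleus, a difference of -10.31 ± 0.09 (SE; adjusted p = 3.89e-06). miR-133b-3p read 6.74 ± 0.18 and 17.01 ± 0.23 (SD, n = 4), a difference of -10.27. The other arm, miR-133a-5p, was detected in the soleus only and was at least 131-fold lower in the nucleus accumbens. The rarest product, miR-1a-1-5p, read 5.92 ± 0.62 in the soleus and was at least 3.18-fold lower.

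**Figure D2:**
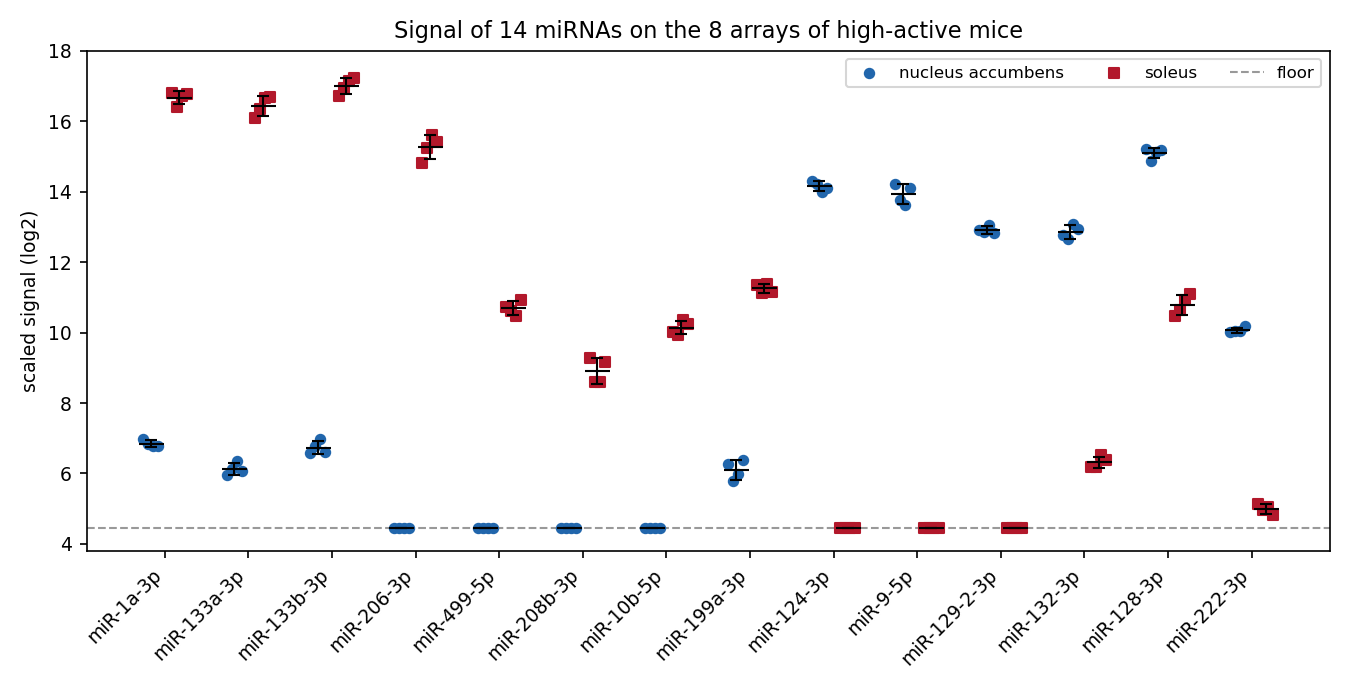
Scaled signal (log2, y axis) of 14 miRNAs on the 4 nucleus accumbens arrays (blue circles) and 4 soleus arrays (red squares), in the order of mice 223, 224, 225 and 227, with mean and SD in black; the dashed line is the floor at 4.44. No miRNA shown overlaps between the tissues, and 4 of the muscle and trunk miRNAs and 3 of the neuronal ones lie at the floor in the other tissue.

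The miRNAs of the slow myosin genes followed the muscle miRNAs. miR-499-5p and miR-208b-3p are made from introns of myosin genes and help to hold muscle in the slow fibre type. miR-499-5p read 10.73, 10.60, 10.47 and 10.94 in the soleus and was not detected in the nucleus accumbens, which made it at least 86.1-fold lower there (adjusted p = 9.56e-06). miR-208b-3p read 9.28, 8.60, 8.59 and 9.17 in the soleus and was at least 25.2-fold lower (adjusted p = 7.21e-05). For both products the soleus of mice 227 and 223 gave higher values than that of mice 224 and 225. miR-208a-3p, the product of the heart myosin gene, was detected on none of the 8 arrays.

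The miRNAs tied to muscle metabolism were lower in the nucleus accumbens in all 10 tested cases, against 34.5% of all tested miRNAs. Their median was -2.32. Members of the miR-378 family led them. miR-378a-5p, from an intron of the PGC-1β gene, read 9.52, 9.88, 10.27 and 10.18 in the soleus and was at or close to the floor on all nucleus accumbens arrays, -5.49 where the floor stands for 3 of them. Its partner arm miR-378a-3p differed by -4.11, at 7.22 ± 0.19 and 11.33 ± 0.15, and miR-378b, whose hairpin lies in the span of Msi2, by -4.35. miR-22-3p, abundant in heart and muscle, differed by -2.25, miR-23a-3p by -2.34 and miR-23b-3p by -1.09, all with signal in both tissues. Without scaling miR-23b-3p did not pass (-0.37). miR-486-3p, counted here and among the red cell miRNAs, was at least 5.01-fold lower. miR-3107-5p, which is nearly identical in sequence to miR-486 and whose probes may not separate them, differed by -4.49, from 10.49 ± 0.38 to 6.01 ± 0.35.

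In the opposite direction stood the neuronal miRNAs. Of 19 tested, 17 (89.5%, against 46% of all tested miRNAs) were higher in the nucleus accumbens. None was lower, 2 did not pass, and the median of the 19 was 4.50. miR-124-3p, which represses non-neuronal transcripts in neurons, read 14.30, 14.21, 13.98 and 14.09 in the nucleus accumbens. It was detected on no soleus array and was at least 618-fold higher in the nucleus accumbens (adjusted p = 2.29e-06). Its passenger arm miR-124-5p read 6.69 ± 0.12 and was at least 3.51-fold higher.

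Both arms of miR-9, which acts in neural progenitors and neurons, were detected in the brain region only. miR-9-5p read 14.22, 13.77, 13.62 and 14.12 in the nucleus accumbens and was at least 532-fold higher (adjusted p = 7.64e-06). miR-9-3p read 13.12 ± 0.09 and was at least 303-fold higher. The spread between the 4 mice was far smaller than these differences.

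miR-128-3p, which dampens the excitability of neurons, was measured in both tissues. It read 15.21, 14.88, 15.12 and 15.19 in the nucleus accumbens and 10.48, 10.65, 10.91 and 11.10 in the soleus, a difference of 4.31 ± 0.13 (SE; adjusted p = 4.10e-05). miR-218-5p, a miRNA of motor neurons and of dopamine neurons among others, differed by 7.38 ± 0.22, miR-137-3p was at least 78.9-fold higher, and miR-138-5p, found at dendrites, differed by 6.46. Soleus mouse 227 was the exception for miR-218-5p and miR-138-5p, at 5.05 and 4.80, while the remaining soleus arrays lay at the floor.

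The neuronal members that did not pass were miR-149-5p and miR-135a-1-3p. miR-149-5p read 9.42, 9.32, 9.58 and 9.41 in the nucleus accumbens and 9.22, 9.40, 9.75 and 9.73 in the soleus, so that the tissues overlapped (difference -0.09 ± 0.10, SE; adjusted p = 0.438). miR-135a-1-3p was at the floor in the nucleus accumbens and read 4.69 ± 0.26 in the soleus, whereas the other arm of that hairpin, miR-135a-5p, was at least 16.7-fold higher in the nucleus accumbens.

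The miRNAs known to respond to neuronal activity were higher in 7 of 9 tested cases (77.8%, against 46% of all tested miRNAs). Their median was 4.43. miR-132-3p, which is induced by CREB and shapes dendrites, read 12.77, 12.65, 13.09 and 12.95 in the nucleus accumbens and 6.18, 6.18, 6.52 and 6.38 in the soleus. Its difference of 6.55 ± 0.04 (SE; adjusted p = 2.29e-06) was nearly equal in the 4 mice. miR-212-3p, cut from the same transcript and carrying the same seed, differed by only 1.25 ± 0.28 (SE; adjusted p = 0.0176), and it lost the call without mouse 224, 225 or 227 (adjusted p from 0.0587 to 0.0733). It also lost it with quantile normalization (0.47, adjusted p = 0.294). Its soleus signal read 8.61, 7.68, 7.61 and 7.31, far above the floor. Its other arm, miR-212-5p, was detected in the nucleus accumbens only and was at least 8.51-fold higher.

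miR-129, a regulator of potassium channels, was detected in the nucleus accumbens only. miR-129-2-3p read 12.91, 12.85, 13.06 and 12.82 there and was at least 262-fold higher, and miR-129-1-3p was at least 90.2-fold higher. miR-129-5p was at least 15.9-fold higher and miR-384-5p, which takes part in synaptic plasticity, at least 18.3-fold. The members that did not pass, miR-134-5p and miR-384-3p, read at or near the floor in both tissues.

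miR-221-3p and miR-222-3p, neighbours on the X chromosome with 1 seed that act on cell cycle inhibitors, were measured on all 8 arrays. miR-222-3p read 10.01, 10.05, 10.05 and 10.17 in the nucleus accumbens and 5.13, 4.96, 5.05 and 4.82 in the soleus, a difference of 5.08 ± 0.09 (SE; adjusted p = 1.48e-05). miR-221-3p differed by 3.89 ± 0.06, at 10.95 ± 0.09 and 7.06 ± 0.11. These 2 were among the steadiest of the large differences, with SDs of 0.07 to 0.13 within a tissue.

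Oligodendrocyte miRNAs were higher in the nucleus accumbens in 3 of 4 tested cases (75%, against 46% of all tested miRNAs). miR-219-5p, which drives oligodendrocyte maturation, read 9.22, 10.13, 8.14 and 8.25 there and 4.70, 4.44, 4.44 and 4.44 in the soleus, where no array detected it, and was at least 16.6-fold higher. Its companion miR-219-2-3p was much steadier at 8.35 ± 0.04 and was at least 11.1-fold higher. miR-338-3p read 10.69, 10.57, 10.40 and 10.44 in the nucleus accumbens but 7.11, 6.16, 6.30 and 9.02 in the soleus. Soleus mouse 227 stood well above the rest, and the difference was 3.38 ± 0.59 (SE; adjusted p = 0.00793). miR-338-5p did not pass, at 5.22 ± 0.14 and 5.05 ± 0.61.

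The miR-7 family is rich in endocrine cells and also expressed in brain. It was higher in all 4 tested cases, against 46% of all tested miRNAs. miR-7a-5p read 10.49, 10.56, 10.25 and 9.25 in the nucleus accumbens and lay at the floor on all soleus arrays, 1 of which detected it. miR-7b-5p, with the same seed, was at least 16.98-fold higher, and miR-7a-1-3p differed by 2.50. In both members with that seed, nucleus accumbens mouse 227 gave the lowest value of the tissue.

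The imprinted Dlk1-Dio3 region of chromosome 12, whose maternal copy makes a long run of miRNA hairpins, gave the longest list. Of its 110 products on the array 53 were tested, with a median of 2.88. Of these, 43 (81.1%, against 46% of all tested miRNAs) were higher in the nucleus accumbens, 3 were lower and 7 did not pass. miR-127-3p read 12.06, 12.07, 12.17 and 12.07 in the nucleus accumbens and 8.37, 8.17, 8.81 and 8.57 in the soleus, a difference of 3.61 ± 0.11 (SE; adjusted p = 4.10e-05). miR-154-5p differed by 3.45, miR-300-3p by 3.36 and miR-434-3p by 2.66, each with signal on all 8 arrays. miR-376a-3p, miR-410-3p and miR-376b-3p had bounds of at least 33.8, 32.3 and 31.2-fold.

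The region was not uniform. miR-494-3p read 9.38, 9.71, 9.52 and 9.90 in the nucleus accumbens and 9.73, 9.53, 9.65 and 9.50 in the soleus, so that the tissues overlapped (difference 0.02 ± 0.15, SE; adjusted p = 0.923), and its sign turned when arrays were scaled over all probes. miR-3072-5p was lower in the nucleus accumbens, at 5.08 ± 0.20 against 6.59 ± 0.37, as were miR-299b-5p (-1.36) and miR-3070b-3p (-0.69).

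All 4 tested products of the Hox clusters were lower in the nucleus accumbens, against 34.5% of all tested miRNAs. Their median was -5.18. miR-10b-5p read 10.03, 9.94, 10.35 and 10.24 in the soleus and was not detected in the nucleus accumbens, at least 59.0-fold lower (adjusted p = 1.07e-05). miR-196a-5p read 9.75, 9.89, 10.17 and 10.05 in the soleus and was at least 52.3-fold lower, and its relative miR-196b-5p at least 11.03-fold. miR-10a-5p, which shares the seed of miR-10b-5p, read 9.19, 9.10, 9.46 and 9.36 in the soleus and sat at the floor on all 4 nucleus accumbens arrays, 1 of which detected it. With the software's signal per miRNA it turned to 2.72 and the list to 1 higher and 3 lower. On the nucleus accumbens arrays that signal was 3575 to 5937, where the probes of miR-10a-5p summed to 10.3 to 16.0. The summed scaled signal of the 11 Hox products on the array was 16.1 to 20.5 in the nucleus accumbens and 2689 to 3399 in the soleus.

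Markers of other cell types moved with the tissues as well. miR-199 and miR-214 are made by fibroblasts and other mesenchymal cells. Their products were lower in the nucleus accumbens in 4 of 4 cases, against 34.5% of all tested miRNAs. miR-199a-3p read 6.26, 5.78, 5.97 and 6.39 in the nucleus accumbens and 11.35, 11.12, 11.39 and 11.15 in the soleus, a difference of -5.15 ± 0.13 (SE; adjusted p = 3.29e-05). miR-199b-5p differed by -5.18 and miR-199a-5p by -4.65, while miR-214-3p was at least 14.05-fold lower. The summed signal of the list was 98.8 to 142.9 in the nucleus accumbens and 3999 to 4985 in the soleus.

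Vascular miRNAs were lower in all 4 tested cases (against 34.5% of all tested miRNAs) but by less, with a median of -2.06. miR-126-3p, an endothelial miRNA, read 11.52, 11.21, 11.29 and 11.38 in the nucleus accumbens and 13.28, 13.17, 13.51 and 13.40 in the soleus, a difference of -1.99 ± 0.09 (SE; adjusted p = 0.000127). The other arm, miR-126-5p, differed by -1.53. The smooth muscle miRNAs miR-143-3p and miR-145a-5p differed by -2.14 and -2.26. With the dmr control RNAs as the reference miR-126-3p, miR-126-5p and miR-143-3p did not pass (adjusted p = 0.0600, 0.108 and 0.0649). Their part in the differences of other lists was not tested.

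Blood miRNAs differed less evenly. miR-451a of red cells read 12.00, 10.69, 11.47 and 10.84 in the nucleus accumbens and 12.62, 11.81, 11.92 and 11.95 in the soleus. Each mouse had less in the nucleus accumbens, although the tissues overlapped between mice, and the difference of -0.83 ± 0.15 (SE; adjusted p = 0.00925) lost the call without mouse 227 (adjusted p = 0.0503). miR-451a also lost it without scaling (-0.10), with either scaling that used the dmr control RNAs, without the mouse block (adjusted p = 0.0521) and with slide as the block (0.109). Among leukocyte miRNAs, miR-223-3p of myeloid cells differed by -2.54 and miR-155-5p, a miRNA of activated immune cells, was at least 10.6-fold lower. miR-150-5p of lymphocytes and miR-142-3p did not pass, at differences of -0.29 and -0.32.

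The epithelial miRNAs set nucleus accumbens mouse 224 apart. miR-200a-3p, miR-200b-3p and miR-429-3p come from 1 transcript on chromosome 4 and hold epithelial cells in their state. miR-200a-3p read 12.57, 5.49, 11.20 and 11.95 in the nucleus accumbens of mice 223, 224, 225 and 227, miR-200b-3p read 12.02, 5.12, 11.09 and 11.90, and miR-429-3p read 12.09, 5.19, 11.02 and 11.81. None of the 3 was detected in any soleus. Mouse 224 thus lay far below the others in each of them, close to the soleus arrays.

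They were at least 42.9, 35.6 and 35.5-fold higher in the nucleus accumbens over the 4 mice (adjusted p = 0.0212, 0.0254 and 0.0245). Counted from the floor, the difference of miR-200a-3p was 5.86 ± 1.43 (SE) and was 7.21 without mouse 224 (adjusted p = 0.00132). Without mouse 223, 225 or 227 none of the 3 passed (adjusted p from 0.0764 to 0.102), and with slide in place of mouse as the block miR-200b-3p and miR-429-3p did not pass (0.0544 and 0.0533). miR-96-5p, a miRNA of sensory cells and some epithelia, followed the same mice at 11.08, 4.44, 9.48 and 10.25. Its cluster mates miR-183-5p and miR-182-5p and the miR-200 relative miR-141-3p were detected in mice 223, 225 and 227 but not in mouse 224, so they fell short of the 4 arrays needed for a test. The summed signal of the 14 epithelial products was 152 to 16103 in the nucleus accumbens and 24.1 to 88.5 in the soleus.

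Mouse 224 was not low for every marker of this kind. miR-34b-5p and miR-34c-5p, found in ciliated epithelium such as the choroid plexus, were highest there, at 7.57 against 6.34 to 6.41 and at 7.48 against 6.16 to 6.44. With outlier spots kept, or with normexp, miR-34b-5p did not pass (adjusted p = 0.171 and 0.0549). miR-204-5p, abundant in the choroid plexus and also expressed elsewhere, read 11.07, 11.58, 11.09 and 11.50 in the nucleus accumbens and 7.84, 7.87, 8.35 and 8.80 in the soleus. Its difference was 3.10 ± 0.21 (SE; adjusted p = 0.000453). Of the 5 tested miRNAs of this list 4 were higher in the nucleus accumbens (80%, against 46% of all tested miRNAs). The other, miR-211-3p, was lower.

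**Figure D3:**
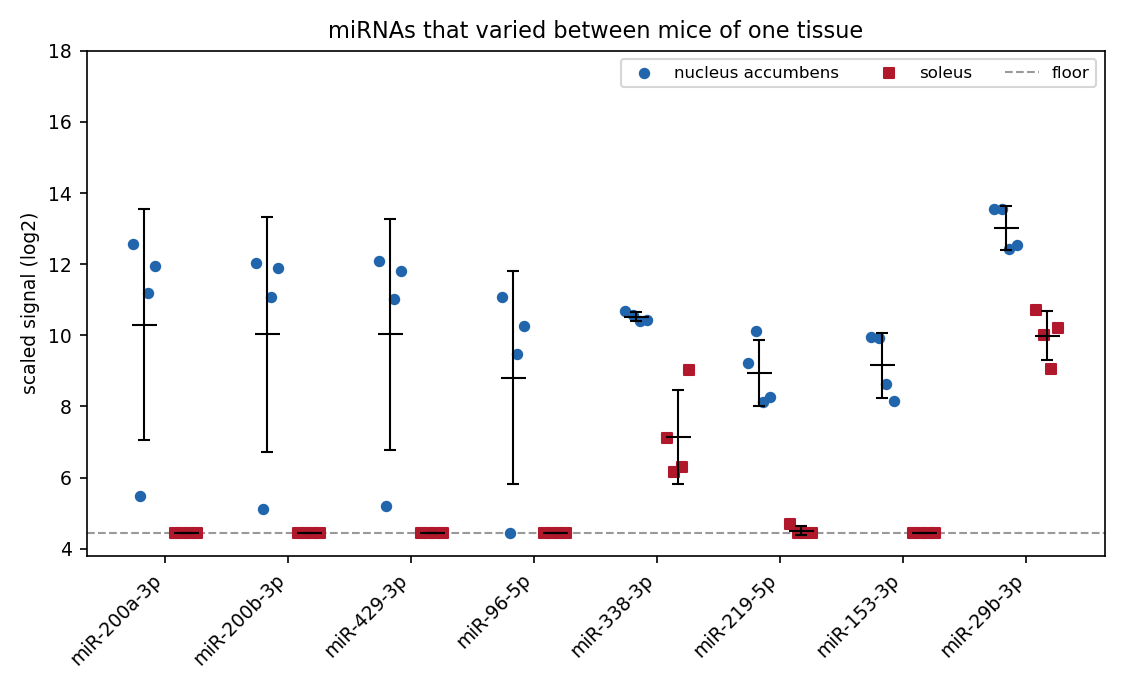
Scaled signal (log2, y axis) of 8 miRNAs that varied between mice of a tissue, on the nucleus accumbens arrays (blue circles) and soleus arrays (red squares), in the order of mice 223, 224, 225 and 227, with mean and SD in black. Nucleus accumbens mouse 224 lies near the floor (dashed line, 4.44) for miR-200a-3p, miR-200b-3p, miR-429-3p and miR-96-5p, and soleus mouse 227 stands above the other soleus arrays for miR-338-3p.

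Families found in most tissues differed by less. In the let-7 family, which restrains growth genes, 5 of 12 tested members (41.7%, against 46% of all tested miRNAs) were higher in the nucleus accumbens and 7 did not pass. The median of 0.24 turned to -0.13 with scaling over all probes and was 0 with the hur control RNAs alone. let-7f-5p, let-7b-5p, let-7d-5p and let-7i-5p did not pass, at differences of 0.15, 0.21, -0.08 and 0.31. let-7a-5p passed at 0.28 but lost the call without mouse 224, 225 or 227 (adjusted p from 0.0590 to 0.0929), let-7c-5p at 0.44 lost it without mouse 227 (adjusted p = 0.0504), and both turned in sign under scaling over all probes. let-7e-5p was the exception: it read 12.06, 11.98, 12.22 and 12.14 in the nucleus accumbens and 9.43, 9.64, 10.07 and 9.79 in the soleus, a difference of 2.37 ± 0.09 (SE; adjusted p = 8.74e-05).

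The miR-29 family, which represses collagens and other matrix genes, was higher in 5 of 6 cases (83.3%, against 46% of all tested miRNAs). miR-29b-3p read 13.56, 13.56, 12.44 and 12.54 in the nucleus accumbens and 10.71, 10.01, 9.04 and 10.21 in the soleus, a difference of 3.03 ± 0.25 (SE; adjusted p = 0.000761). miR-29c-3p differed by 1.78 and miR-29a-3p by 1.37. All 5 tested products of miR-181, a family of brain and lymphocytes, were higher as well, against the same 46%. miR-181a-5p differed by 2.42, miR-181c-5p by 2.25 and miR-181b-5p by 2.04.

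miR-125b-5p, a relative of the worm miRNA lin-4, was higher at 14.68 ± 0.12 against 13.19 ± 0.26 (difference 1.49), and miR-125a-5p by 1.99. Of the neighbouring miR-99 and miR-100 products, miR-99b-5p differed by 1.34 and miR-99a-5p by 0.42, the latter turning to -0.08 under scaling over all probes, and miR-100-5p did not pass (0.29). Over these families 4 of 7 tested products were higher (57.1%, against 46% of all tested miRNAs), 1 was lower and 2 did not pass.

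Of the miR-30 family 5 of 9 were lower in the nucleus accumbens (55.6%, against 34.5% of all tested miRNAs) and 4 did not pass. miR-30a-5p read 11.52, 11.22, 11.18 and 11.12 in the nucleus accumbens and 12.11, 12.08, 12.13 and 12.27 in the soleus, a difference of -0.89 ± 0.11 (SE; adjusted p = 0.00252). miR-30c-5p and miR-30b-5p did not pass, at -0.09 and -0.03. In the miR-17 cluster and its paralogs, which promote proliferation, 5 of 9 were lower (also 55.6%), 1 was higher and 3 did not pass. miR-92a-3p differed by -1.38 and miR-25-3p by -0.85, while miR-19b-3p did not pass (0.15) and turned in sign under quantile normalization. Without scaling miR-30a-5p, miR-92a-3p and miR-25-3p did not pass, at -0.17, -0.65 and -0.12.

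The Sfmbt2 list held a large rodent group of miRNA families, many of them repeated within 1 intron of that gene. Its members were taken by family name, not by position. They were lower in 8 of 12 tested cases (66.7%, against 34.5% of all tested miRNAs), higher in 1 and did not pass in 3. Their median was -1.42. miR-466i-5p read 6.38, 6.33, 6.83 and 7.14 in the nucleus accumbens and 10.18, 9.89, 9.21 and 9.04 in the soleus, a difference of -2.91 ± 0.40 (SE; adjusted p = 0.00394). miR-466h-3p differed by -1.45 and miR-467f by -1.41. Many of these products are close in sequence, and their probes may share signal. The exception, miR-467b-5p, was detected in the nucleus accumbens only and was at least 1.55-fold higher.

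**Figure D4:**
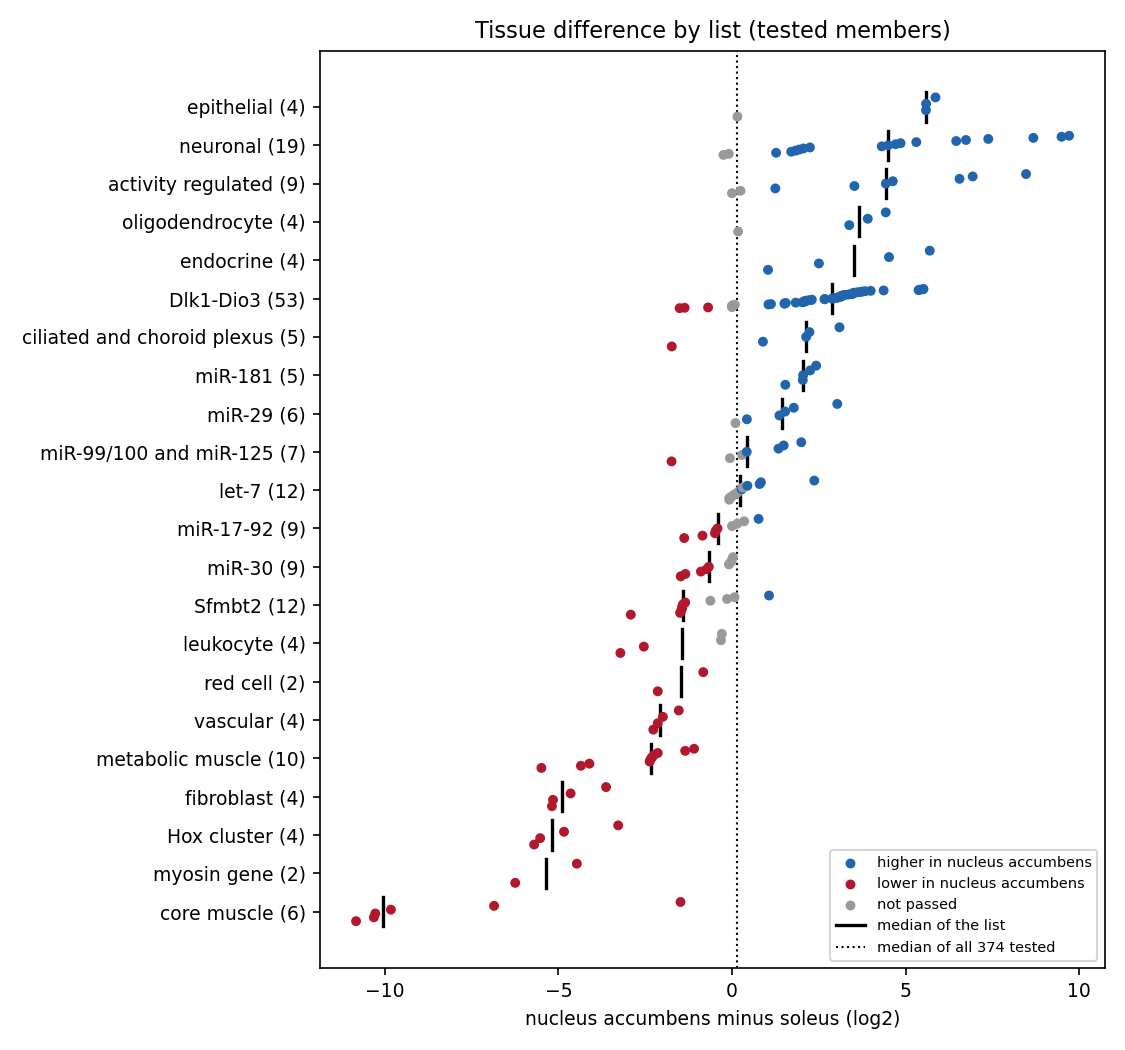
Difference between nucleus accumbens and soleus (log2, x axis) of the tested members of 22 lists, with the number of tested members in brackets; a point is 1 miRNA, blue higher, red lower and grey not passed, and black bars are list medians. Core muscle, myosin gene, Hox cluster and fibroblast medians lie at or below -4.90, and epithelial, neuronal and activity regulated medians at or above 4.43, around a median of 0.16 for all tested (dotted line).

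miRNAs with 1 seed did not always move together. Among the tested miRNAs with a RefSeq entry there were 30 seed families of at least 2 members. Of these, 13 were higher throughout, 6 were lower throughout and 5 held called members of both directions. Singly, 46% of all tested miRNAs were higher and 34.5% lower. In the miR-148 family miR-148b-3p was higher by 1.97 and miR-148a-3p by 0.84, whereas miR-152-3p differed by -1.79. miR-152-3p read 6.58, 6.13, 6.12 and 6.31 in the nucleus accumbens and 8.03, 8.02, 8.13 and 8.12 in the soleus.

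The neuronal miR-384-5p, with its bound of at least 18.3-fold higher, shares a seed with miR-30a-5p, which was lower. In the miR-130 family miR-301a-3p was higher by 2.02 and miR-130b-3p was at least 1.497-fold higher, but miR-130a-3p differed by -0.44 and miR-721, at the floor in the nucleus accumbens, by -1.84. miR-26a-5p was higher by 0.32 and miR-26b-5p differed by -0.62, and miR-106b-5p was higher by 0.77 while miR-20a-5p and miR-20b-5p differed by -0.42 and -0.47.

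Against the same shares of 46% and 34.5% for single miRNAs, the 2 arms of a hairpin were compared. Of 55 hairpins with both arms tested, 29 had both arms higher in the nucleus accumbens, 6 had both lower and 2 had called arms of opposite direction. miR-125a-5p was higher by 1.99, at 10.90, 10.95, 11.06 and 11.12 against 8.93, 8.85, 9.23 and 9.05, whereas miR-125a-3p differed by -1.74. The latter read 4.44, 4.55, 4.76 and 4.61 in the nucleus accumbens and 5.71, 7.31, 6.54 and 5.78 in the soleus. In the other hairpin, miR-211-5p was at least 1.37-fold higher and miR-211-3p differed by -1.73.

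Neighbouring hairpins were compared in the same manner. The tested miRNAs formed 31 genomic clusters of hairpins on 1 strand no more than 10 kb apart, and 4 of these held called members of both directions. All 4 tested products of the miR-23a, miR-27a and miR-24-2 cluster on chromosome 8 were lower, from -2.37 to -1.33, and all 3 products of the miR-132 and miR-212 cluster on chromosome 11 were higher, from 1.25 to 6.55. In the let-7e and miR-125a cluster on chromosome 17 the products ranged from -1.74 to 2.37.

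The same tissues of low-active mice, 3 nucleus accumbens and 2 soleus arrays of the C3H/HeJ strain, were not used above and gave a separate reading of the tissue difference. These mice were of the same age and housing. Of the 301 called miRNAs, 294 (97.7%) had the same sign there and 265 also passed in the same direction, and none passed in the opposite direction. In this joint fit 179 of 421 tested miRNAs were higher in the nucleus accumbens of low-active mice and 118 lower. miR-132-3p differed by 6.55 in high-active and 6.96 in low-active mice. miR-124-3p read 14.05 to 14.18 in the nucleus accumbens of low-active mice and lay at the floor in their soleus, and miR-10b-5p read 10.15 to 10.18 in their soleus and lay at the floor in their nucleus accumbens.

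The core muscle miRNAs were somewhat closer between tissues in low-active mice, with miR-133b-3p at -9.44 and miR-1a-3p at -9.39, against -10.27 and -9.82. The difference between strains did not pass for either (adjusted p = 0.550 and 0.795). One low-active nucleus accumbens array, that of mouse 197, had 0.325% of its signal in core muscle miRNAs, against 0.0501% and 0.0638% in the other 2. miR-200a-3p differed by 2.01, miR-200b-3p by 1.93 and miR-429-3p by 1.94 in low-active mice, where the 3 nucleus accumbens arrays ranged from the floor to 10.70 for miR-200a-3p.

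**Figure D5:**
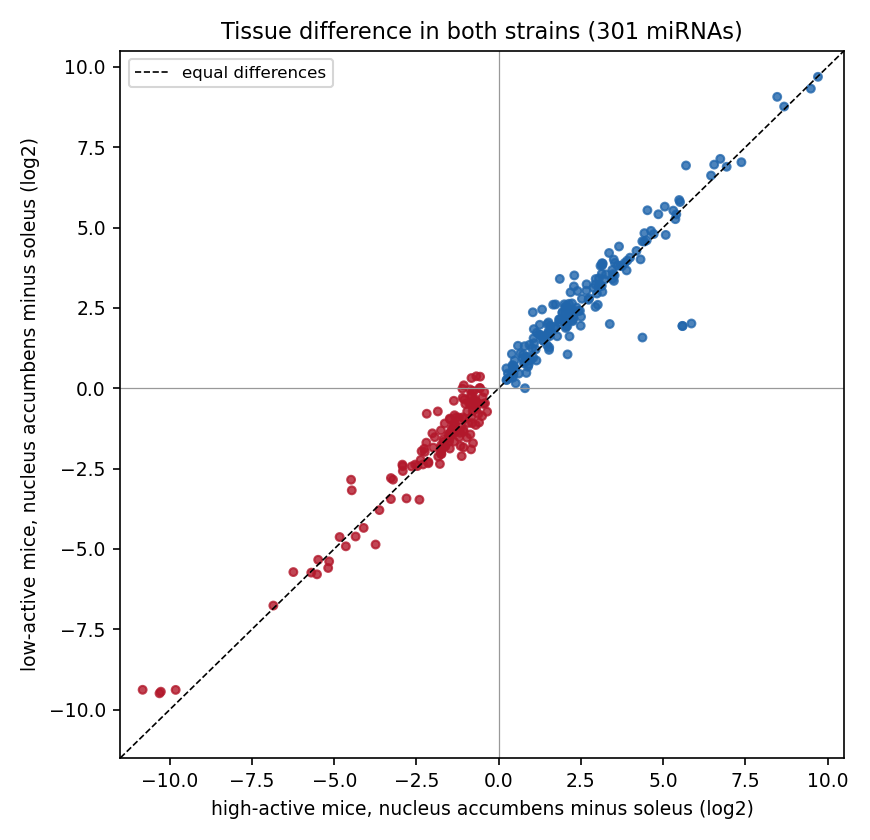
Difference between nucleus accumbens and soleus (log2) in low-active mice (y axis) against that in high-active mice (x axis) for the 301 miRNAs called in high-active mice, blue higher and red lower in the nucleus accumbens; the dashed line marks equal differences. Of these, 294 have the same sign in both strains, and the 4 core muscle products at the lower left lie above the dashed line.

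Whether the tissue difference itself differed between strains was tested over the 13 arrays. Of 421 miRNAs 42 (9.98%) passed, and 15 of the 42 were detected on all 13 arrays. miR-3107-5p differed by -4.49 in high-active and -2.85 in low-active mice (interaction -1.68, adjusted p = 0.0322), and miR-208b-3p, at the floor in the nucleus accumbens of both strains, read 8.91 ± 0.37 in the soleus of high-active and 7.43 and 7.77 in that of low-active mice (interaction -1.35, adjusted p = 0.00909). miR-874-3p, at the floor in the soleus of both strains, read 6.10 ± 0.09 in the nucleus accumbens of high-active and 6.93 to 7.17 in that of low-active mice (interaction -0.92, adjusted p = 0.000123), although with normexp the tissue difference of high-active mice was 0.11 and did not pass. miR-342-5p, whose hairpin lies in the span of Evl, was detected in the nucleus accumbens of high-active mice at 5.39, 5.16, 5.19 and 5.24 and was at the floor in the low-active mice, an interaction of 0.82 (adjusted p = 0.000359). Its bound in high-active mice was at least 1.29-fold higher, and with normexp its tissue difference turned to -0.0857. miR-149-5p, which did not differ past the test in high-active mice, differed by 0.81 in low-active mice (interaction -0.95, adjusted p = 0.0104). miR-770-3p lay at the floor in both tissues of high-active mice, although it was detected on all 4 of their nucleus accumbens arrays. It read 4.88 to 5.07 in the nucleus accumbens of low-active mice (interaction -0.56, adjusted p = 0.000185). Of the Sfmbt2 list, miR-467e-5p and miR-467a-3p were too seldom detected in high-active mice to be tested there. Their interactions were -1.04 and -1.46 (adjusted p = 6.51e-05 and 0.000173).

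The count of 42 interactions rested on few mice. It was 24, 38, 20 and 17 without high-active mouse 223, 224, 225 or 227, and 13, 15 and 35 without low-active mouse 194, 195 or 197. With 1 soleus array left in the low-active group after mouse 194 or 195 was removed, that array was assumed to vary like the other groups.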

How the data were processed

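RNA of each tissue (100 ng) was labelled with cyanine 3 and hybridised to Agilent mouse miRNA arrays, and Feature Extraction 10.7.1.1 gave the deposited intensity per spot, background-subtracted by the authors' scanner software. Samples were grouped by strain and tissue from the labels. Non-control spots without outlier flags were averaged per probe, each array was divided by the 75th percentile of the 372 probes detected on all 8 arrays, and a miRNA took the mean of its probes. A probe counted as detected where over 0.5 of its spots were well above background, and a miRNA where any of its probes was. Values under the floor were set to it before log2. miRNAs detected on at least 4 arrays were fitted with limma 3.58.1 in R 4.3.3 with mouse as a block, because both tissues came from the same animals. The 13-array fit used mouse as a random block (duplicate correlation 0.0377). Adjusted p is by Benjamini-Hochberg over all tested miRNAs.

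Deviations from the tissue mean correlated within mice 223, 224, 225 and 227 at -0.08, -0.02, 0.40 and -0.13. The number of arrays limits precision, and p-values cover the spread between these 4 mice. Where all arrays of 1 tissue lay at the floor, they hold only the spread of the other tissue. Where no array of 1 tissue detected a miRNA, its bound sets the bright mean against the lowest detected signal of each dim array. Scripts were tested on simulated data.

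The deposited log2 table of the series was not used, since its entries were centred within tissue and so hold no tissue difference. Arrays of the extensor digitorum longus were not used. The members and lists were chosen with earlier results of these data known. miRNAs were named as the 8 largest differences in each direction among those detected on all 8 arrays that passed and differed the same way in all 4 mice, the 5 largest bounds in each direction, the 3 brightest of each list, the 5 brightest that did not pass and the 5 smallest interaction p-values. Others, among them family members, both arms of a hairpin and miRNAs that varied between mice, were named after their values were seen. Mature sequences and hairpin positions are RefSeq's for GRCm38.p6. A host gene is one whose span holds the hairpin.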

Additional observations from a re-analysis of the deposited data

Results flagged for a closer look

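In 11 of 137 groups of 4 arrays (8.03%) of the named miRNAs, 1 array stood apart from the other 3 by Dixon's test. Chance gives about 1 in 20 where groups are independent. These groups share 8 arrays, so their share was not compared with chance. In 5 of the 11 groups the array that stood apart was nucleus accumbens mouse 224. It read 5.12 for miR-200b-3p against 11.09 to 12.02 in the others, 5.19 for miR-429-3p against 11.02 to 12.09, 11.11 for miR-129-1-3p against 11.45 to 11.48, 7.57 for miR-34b-5p against 6.34 to 6.41, and 7.21 for miR-92a-3p against 7.73 to 7.83.

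Nucleus accumbens mouse 225 read 12.17 for miR-127-3p against 12.06 to 12.07, and 12.10 for miR-434-3p against 11.84 to 11.86. Soleus mouse 224 read 7.03 for miR-300-3p against 7.31 to 7.37, and 11.08 for miR-133a-5p against 11.35 to 11.38. Soleus mouse 223 read 10.18 for miR-143-3p against 10.01 to 10.04, and 4.70 for miR-219-5p, where the rest were at the floor of 4.44. For miR-219-5p the floor made the other values equal, so any value above it would stand apart.

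The tissue difference of 9 of the 81 named and tested miRNAs differed between strains by the interaction test of limma. Over all 421 tested, 42 (9.98%) did. Among the 9, miR-874-3p, miR-770-3p and miR-342-5p had been named for their small interaction p-values. The tissue difference is given as high-active minus low-active with its adjusted p. It was -1.68 for miR-3107-5p (0.0322), -1.35 for miR-208b-3p (0.00909), -0.58 for miR-499-5p (0.0490), -0.58 for miR-129-2-3p (0.000994), -0.95 for miR-149-5p (0.0104), -0.89 for miR-300-3p (0.0241), -0.92 for miR-874-3p (0.000123), -0.56 for miR-770-3p (0.000185) and 0.82 for miR-342-5p (0.000359).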

How the results depend on the processing

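The count of lower miRNAs, 129, was 65 without scaling, 78 with scaling to all control RNAs and 54 with the dmr control RNAs alone, the last chosen after seeing the data. It was 155 when all probes set the scale, 152 after quantile normalization and 159 with normexp. With miRNAs detected on all 8 arrays, 175 passed and 79 were higher, out of 208 tested, by construction fewer. Without the replicate block that pairs the tissues of a mouse, 303 passed, 171 higher and 132 lower. Leaving out 1 mouse gave 264 to 291 in all, 154 to 162 higher and 108 to 129 lower. The 42 interactions came to 25 when all probes set the scale, 15 after quantile normalization, 23 with slide as a block, and 13 to 38 with 1 mouse left out. Signs turned for miR-494-3p (-0.48), let-7a-5p (-0.22), let-7c-5p (-0.0599) and miR-99a-5p (-0.0782) with scaling over all probes, for miR-19b-3p with quantile normalization (-0.68), for let-7a-5p with the hur control RNAs alone (-0.0623, chosen after seeing the data) and for miR-342-5p with normexp (-0.0857). The cause was not tested. Over the 81 named and tested miRNAs and all settings, 77 calls fell short of the threshold with their direction kept, 23 values newly passed and 8 turned. miR-10a-5p turned to 2.72 with the software's signal per miRNA. Of all 301 calls, 254 were kept with that signal and 5 were called in the opposite direction. Quantile normalization called 3 of the 301 in the opposite direction and normexp 1. The software's signal differed from the sum over probes for 23.3% to 28.5% of the miRNAs it detected on an array. The normexp setting used the median spot signal. The slides held tissues unevenly: in slide 3 (3 nucleus accumbens, 1 soleus) 300 of the 301 kept their sign, in slide 2 (1 and 2) all 301, and slide 1 held 1 soleus array only. The floor limits what can be said of miRNAs detected in 1 tissue.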

Other observations

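Of the tested miRNAs 182 belonged to none of the lists, of which 70 were higher in the nucleus accumbens, 73 were lower and 39 did not pass. Over all tested miRNAs 46% were higher and 34.5% lower. miR-598-3p read 9.57, 9.67, 9.79 and 8.94 in the nucleus accumbens and was detected in no soleus, at least 24.5-fold higher. miR-135b-5p was at least 13.5-fold and miR-326-3p at least 9.33-fold higher in the same manner. miR-103-3p and miR-107-3p, which lie in pantothenate kinase genes, were higher by 2.33 and 2.22 on the log2 scale, miR-34a-5p, a target of p53, by 2.49, and miR-342-3p by 2.94.

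Among those lower in the nucleus accumbens, miR-322-5p, a member of the miR-15 seed family that promotes muscle differentiation, read 7.14, 6.79, 6.83 and 6.87 against 9.57, 9.33, 9.58 and 9.73 in the soleus (difference -2.65). miR-574-5p differed by -3.28, miR-1187 by -2.93 and miR-5128 by -3.74.

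Soleus and nucleus accumbens of mouse 223 deviated in opposite directions for several products. Its soleus array was the only one of that tissue on slide 3 and detected the fewest miRNAs of the 4 (263). Mouse, slide and array therefore cannot be told apart for it. miR-5100 read 8.04, 10.76, 9.74 and 9.59 in the nucleus accumbens of mice 223, 224, 225 and 227 and 14.19, 11.91, 11.27 and 11.94 in the soleus, and did not pass (difference -2.79 ± 1.01, SE; adjusted p = 0.0632). miR-3968 (-1.75) and miR-5097 (-0.71) showed the same order of mouse 223, lowest in the nucleus accumbens and highest in the soleus, and did not pass. miR-3963 had that order too, at 12.88 against 13.74 to 14.15 and at 17.02 against 15.48 to 15.57, and passed (-2.19, adjusted p = 0.0266).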
